A study of Drosophila melanogaster with 3 samples.

Results

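Glial marker genes were followed in adult Drosophila melanogaster, in whole-head RNA from flies in which protein kinase A (PKA), the kinase activated by cAMP, had been manipulated in the mushroom bodies. The members were the 10 genes alrm, Gat, Gs2, Eaat1, loco, Gli, moody, repo, nrv2 and CG6126, taken through every probe set that the platform's gene table gives a single symbol. Of these 10 genes, 9 had such a probe set, each of the 9 had exactly 1, and they stand among 11981 genes named in this way. Eaat1, a glutamate transporter gene, had none and was not analysed here.

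Each genotype was measured on 1 array, 3 arrays in all. The PKA-CA flies carried the transgene UAS-PKA-CA, for constitutively active PKA, and the PKA-DN flies UAS-PKA-DN, for dominant-negative PKA. The control flies had no PKA transgene and are labelled as /+. All groups, the control included, carried the driver p247-Gal4 and tub-gal80[ts], in which a tubulin promoter drives a temperature-sensitive form of the Gal80 repressor. All flies were kept at 18 °C, moved to 32 °C for 12 to 16 h to inactivate the repressor, and were 4 to 6 days old. The driver p247-Gal4, called MB247-Gal4 in the submitted design, acts in the mushroom bodies, the olfactory memory centre of the brain, whereas the RNA came from all cells of the head. In the submitted design the words for higher and lower activity stand in the opposite order to the transgene names. PKA-CA is taken here as the activity-raising form and PKA-DN as the activity-lowering form, and activity itself was not measured in these data. A single array per genotype gives neither a replicate error nor a test, so every difference below describes these arrays and can hold differences between fly collections, RNA extractions or hybridisations.

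Drosophila glia fall into astrocyte-like and ensheathing glia of the neuropil, cortex glia around neuronal cell bodies, and perineurial and subperineurial glia at the surface of the nervous system. Astrocyte-like glia take up glutamate and GABA released at synapses, and glutamine synthetase turns the glutamate into glutamine. Subperineurial glia form the blood-brain barrier through septate junctions, and in the fly the G protein-coupled receptor Moody acts there through G proteins, the regulator Loco and PKA. The homeodomain factor Repo is present in nearly all glia except those of the midline.

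The values were MAS5 signals, a linear intensity per probe set that had been scaled so that each array had the same trimmed mean. All 9 genes were well above the negative controls on every array. The lowest ratio to them, for Gli in PKA-DN heads, was 7.53 times the highest of 99 negative-control probe sets on that array, and for Gs2 the lowest such ratio was 132. The comparisons below cover 5991 genes, the brighter 50% by log2 signal averaged over the arrays, with a mean signal of 254 or more. All 9 glial genes with a probe set were among them, so no member was lost to this filter. Signals of different probe sets depend on their probes, so genes are compared by their ratios between arrays and not by level.

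**Figure D1:**
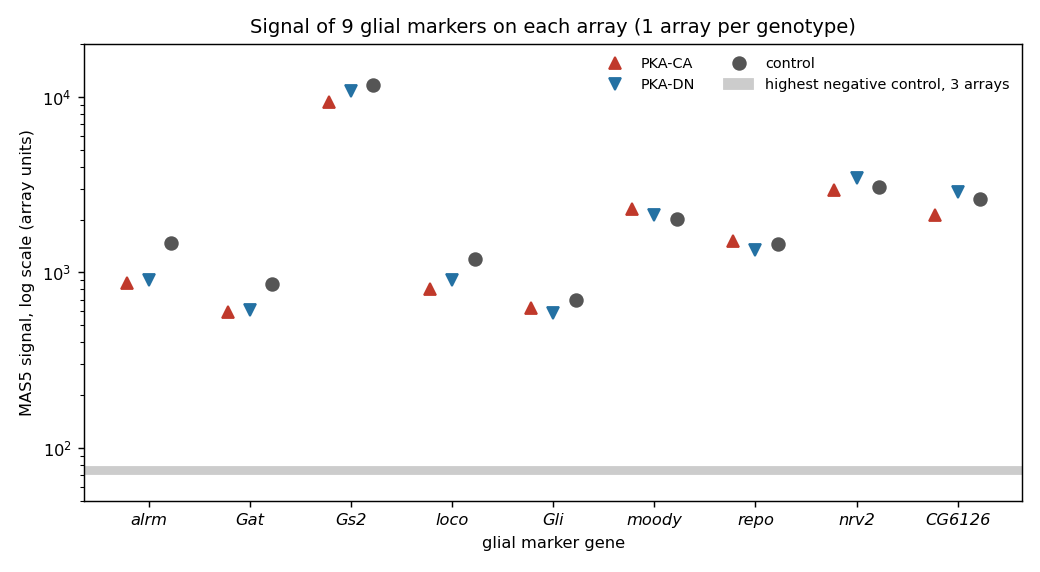
MAS5 signal (log axis, array units) of the 9 glial markers, with 1 point per array: PKA-CA (red), PKA-DN (blue) and control (grey). A grey band between 70.9 and 77.8 marks the highest signals of the negative controls used. The control point stands above both PKA points for alrm, Gat, Gs2, loco and Gli.

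Of the 3 measured members tied to astrocyte-like glia and transmitter recycling, alrm was lower than the control by 1.5-fold or more on both PKA arrays, and Gat and Gs2 had smaller ratios of the same sign. The control array was the highest for all 3, as it was for 32.6% of all compared genes. Members of the barrier and of glial fate had ratios of either sign. Among them, loco (-0.57 for PKA-CA and -0.39 for PKA-DN over control) was lower than Gs2 (-0.32 and -0.11) in both comparisons. For PKA-CA it was also lower than Gat (-0.54), so low ratios were not particular to the first group. The gene alrm (CG11910), astrocytic leucine-rich repeat molecule, marks astrocyte-like glia. Its signal was 875 in PKA-CA heads, 910 in PKA-DN heads and 1464 in control heads. The PKA arrays were close to each other and both lay below the control, by 1.67-fold for PKA-CA (log2 ratio -0.74) and by 1.61-fold for PKA-DN (-0.69). Of the 5991 compared genes, 46 had a lower ratio than alrm in the PKA-CA and 55 in the PKA-DN comparison with the control. Both ratios share the control array, so an unusual control value and a difference on both PKA arrays cannot be told apart, and the PKA-CA over PKA-DN ratio of alrm, which does not use the control, was -0.06. In RNA from whole heads, fewer cells of a type and less RNA per cell cannot be told apart.

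The GABA transporter gene Gat (CG1732) clears GABA into astrocyte-like glia. It had a signal of 596 in PKA-CA heads, 608 in PKA-DN heads and 864 in control heads. As with alrm, the PKA arrays were nearly equal and the control stood above them, but the differences of 1.45-fold for PKA-CA (log2 ratio -0.54) and 1.42-fold for PKA-DN (-0.51) did not reach the 1.5-fold used here as a call. In these comparisons 152 and 137 of the 5991 genes had lower ratios than Gat, and its ratio for PKA-CA over PKA-DN was -0.03.

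Gs2 (CG1743) encodes a glutamine synthetase and had the highest signal among the members' probe sets. Its signal was 9336 in PKA-CA heads, 10795 in PKA-DN heads and 11653 in control heads. The log2 ratio over the control was -0.32 in PKA-CA and -0.11 in PKA-DN heads, and 56.5% of compared genes lay as far from 0 as Gs2 in the PKA-DN comparison. Between the PKA arrays Gs2 had -0.21, so its signal differed more between PKA-CA and PKA-DN than those of alrm and Gat did. The median log2 ratio of alrm, Gat and Gs2 was -0.54 in PKA-CA and -0.51 in PKA-DN heads relative to the control, and -0.06 between PKA-CA and PKA-DN.

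Genes of the blood-brain barrier did not share a direction. The gene loco (CG5248), which encodes a regulator of G protein signalling that acts with Moody, had a signal of 800 in PKA-CA heads, 903 in PKA-DN heads and 1185 in control heads. The control was again the highest array, with log2 ratios of -0.57 for PKA-CA, just short of 1.5-fold (-0.58), and -0.39 for PKA-DN. Its PKA-CA over PKA-DN ratio was -0.17. By rank, 127 and 287 of the 5991 genes had lower ratios over the control than loco.

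The receptor gene moody (CG4322) went the other way from loco, with a signal of 2308 in PKA-CA heads, 2119 in PKA-DN heads and 2006 in control heads. It was the only member of the 9 for which the control was the lowest array, and its log2 ratios were small, at 0.20 for PKA-CA and 0.08 for PKA-DN relative to the control and 0.12 between PKA-CA and PKA-DN. Gli (CG3903) encodes Gliotactin, a protein of septate junctions where 3 cells meet. Its signal was 629 in PKA-CA heads, 586 in PKA-DN heads and 697 in control heads, which gives -0.15 for PKA-CA over control, -0.25 for PKA-DN over control and 0.10 between PKA-CA and PKA-DN. The receptor and its regulator thus had ratios of opposite sign in all 3 comparisons, and whether the gap between them exceeds array noise was not tested.

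The general markers of glia stayed close to the control. For repo (CG31240), the signal was 1506 in PKA-CA heads, 1347 in PKA-DN heads and 1458 in control heads. Its log2 ratios were 0.05 for PKA-CA over control, -0.11 for PKA-DN over control and 0.16 between PKA-CA and PKA-DN, and 83.5% of compared genes lay as far from 0 in the first of these. The gene nrv2 (CG9261) encodes a beta subunit of the sodium-potassium pump and is a common source of glial driver lines. It had a signal of 2932 in PKA-CA heads, 3439 in PKA-DN heads and 3082 in control heads, with ratios of -0.07, 0.16 and -0.23 in the same order of comparisons. The PKA-DN array was thus the lowest for repo and the highest for nrv2.

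CG6126, which encodes a predicted solute carrier, had the widest difference between the PKA arrays among the 9 genes. Its signal was 2131 in PKA-CA heads, 2862 in PKA-DN heads and 2610 in control heads. The PKA-CA over PKA-DN log2 ratio was -0.43, a 1.34-fold difference, and 299 of 5991 genes had a lower one. Over the control it had -0.29 for PKA-CA and 0.13 for PKA-DN, with the control array in the middle. The other gene with the control in the middle and PKA-DN highest was nrv2, and for repo the control lay between a lower PKA-DN and a higher PKA-CA value.

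**Figure D2:**
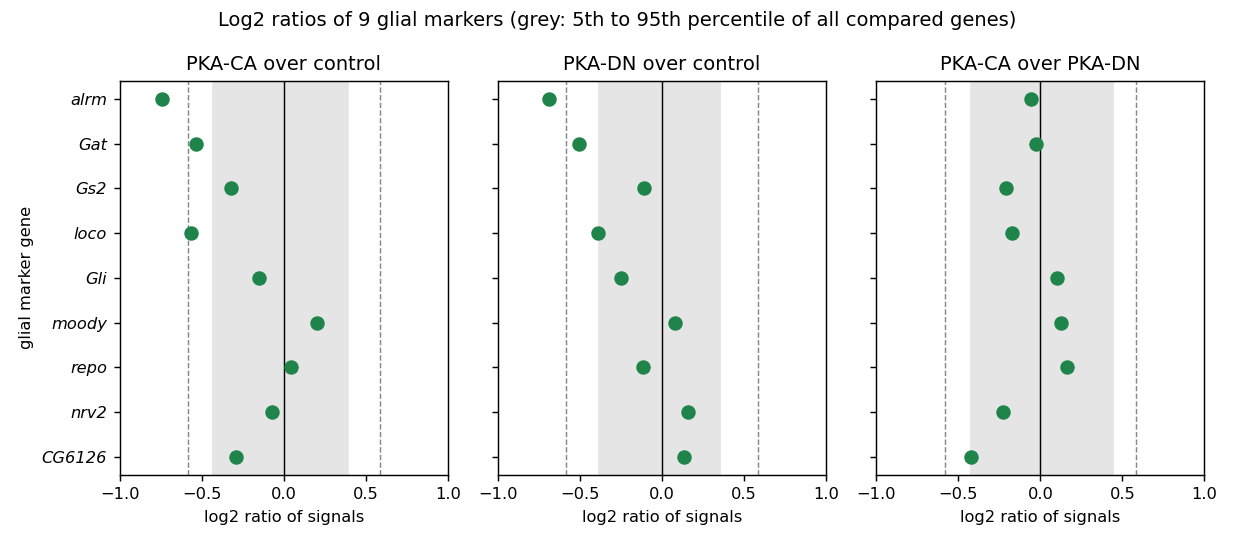
Log2 ratio of signals for each of the 9 glial markers (green points) in 3 panels (PKA-CA over control; PKA-DN over control; PKA-CA over PKA-DN). The grey area spans the 5th to 95th percentile of the 5991 compared genes and dashed lines mark 1.5-fold; alrm lies beyond the lower dashed line in both comparisons with the control (-0.74 and -0.69) and near 0 between the PKA arrays (-0.06).

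Counted together, 1 of 9 glial markers (alrm) was 1.5-fold or more lower in PKA-CA than in control heads, against 1.89% of all compared genes, and 0 of 9 were 1.5-fold or more higher, against 1.72%. For PKA-DN over control the counts were also 1 lower (alrm; 1.44% of all genes) and 0 higher (1.49%). Between PKA-CA and PKA-DN, 0 of 9 were lower (2% of all genes) and 0 were higher (2.22%). A count of 1 in 9 rests on a single gene. By sign alone, 7 of 9 were lower in PKA-CA than in control heads (50.5% of all genes), 6 of 9 were lower in PKA-DN than in control heads (51.7%), and 6 of 9 had lower PKA-CA than PKA-DN signals (49.8%).

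The median log2 ratio of the 9 genes was -0.29 for PKA-CA over control, beside -0.003 over all compared genes. It was -0.11 for PKA-DN over control, beside -0.01, and -0.06 between PKA-CA and PKA-DN, beside 0.001. The control array was the highest for 5 of 9 members (32.6% of all genes) and the PKA-CA array was the lowest for 6 of 9 (35.8%). Within 1.2-fold of the control were 4 of 9 members in PKA-CA heads (74.4% of all genes) and 6 of 9 in PKA-DN heads (79%), and 8 of 9 lay as close between PKA-CA and PKA-DN (73%). The members outside that range were alrm, Gat and loco in both comparisons with the control, joined by Gs2 and CG6126 for PKA-CA, and CG6126 alone between the PKA arrays.

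Being lower by 1.5-fold or more on both PKA arrays was uncommon, and applied to 24 of 5991 genes (0.401%), of which alrm was 1. Across all gene lists examined, 6 genes had this pattern: alrm, the glial genes ebony (e) and Cyp4g15, the blood cell genes PPO1 and PPO2, and the sodium channel gene para. The lists were chosen with earlier results of these data known, so how many of the 24 genes they hold is not read as a result. The control array enters this pattern for all 24 genes.

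A second list of 23 other glial genes had 17 compared, with 2 lacking a usable probe set (pnt and ttk) and 4 too dim. Relative to the control, 2 of 17 were lower by 1.5-fold or more in PKA-CA heads (1.89% of all genes) and 3 of 17 in PKA-DN heads (1.44%), and 0 were higher in either (1.72% and 1.49%). Its median was near 0 for PKA-CA over control, at 0.04 (9 higher, 8 lower; -0.07 with the dim genes included), -0.10 for PKA-DN over control (4 higher, 13 lower) and 0.09 between PKA-CA and PKA-DN (12 higher, 5 lower). Of all compared genes, 50.5%, 51.7% and 49.8% were lower in the same order of comparisons. The 9 glial markers had medians of -0.29, -0.11 and -0.06 in that order. The medians of the lists were thus close for PKA-DN over control and further apart for PKA-CA over control. A few genes of the second list had values like those of alrm.

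The gene ebony (e) encodes the enzyme that couples beta-alanine to histamine and other amines in glia, and also acts in cuticle pigmentation. Its signal was 291 in PKA-CA heads, 360 in PKA-DN heads and 800 in control heads, with log2 ratios over the control of -1.46 and -1.15. Cyp4g15, a cytochrome P450 gene known from cortex glia, had 837 in PKA-CA heads, 820 in PKA-DN heads and 1394 in control heads, or -0.74 and -0.77. For both genes the control array was the highest. The PKA arrays lay close together for Cyp4g15, at 0.03 for PKA-CA over PKA-DN, and further apart for ebony, at -0.31.

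The homeodomain gene prospero (pros), which acts in glial and neuronal lineages, had another pattern. Its signal was 983 in PKA-CA heads, 510 in PKA-DN heads and 951 in control heads, so that PKA-DN stood alone, at -0.90 relative to the control, and PKA-CA over PKA-DN was 0.95. The brightest genes of the list, the sugar transporter gene Tret1-1 of the barrier and the transporter gene Eaat2, had 0.18 and 0.23 in PKA-CA and 0.03 and 0.12 in PKA-DN heads relative to the control.

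Of the 4 dim genes, gcm and gcm2, which start glial fate in the embryo, were below the highest negative control on all 3 arrays. Their ratios are not given here, although they enter the median given above with the dim genes included. The remaining dim genes were above the highest negative control on all arrays. The beta-alanine transporter gene Balat, which works with ebony in the recycling of histamine, had a signal of 115 in PKA-CA heads, 186 in PKA-DN heads and 307 in control heads, and nazgul (naz) had 88.8 in PKA-CA heads, 168 in PKA-DN heads and 202 in control heads. Both were highest on the control array and lowest on the PKA-CA array, at log2 ratios over the control of -1.41 and -0.72 for Balat and -1.19 and -0.27 for naz. The highest negative control on the PKA-CA array was 70.9, so their PKA-CA signals lay near the floor and the ratios are uncertain. Both genes fell below the signal filter and are given here after their values had been seen.

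**Figure D3:**
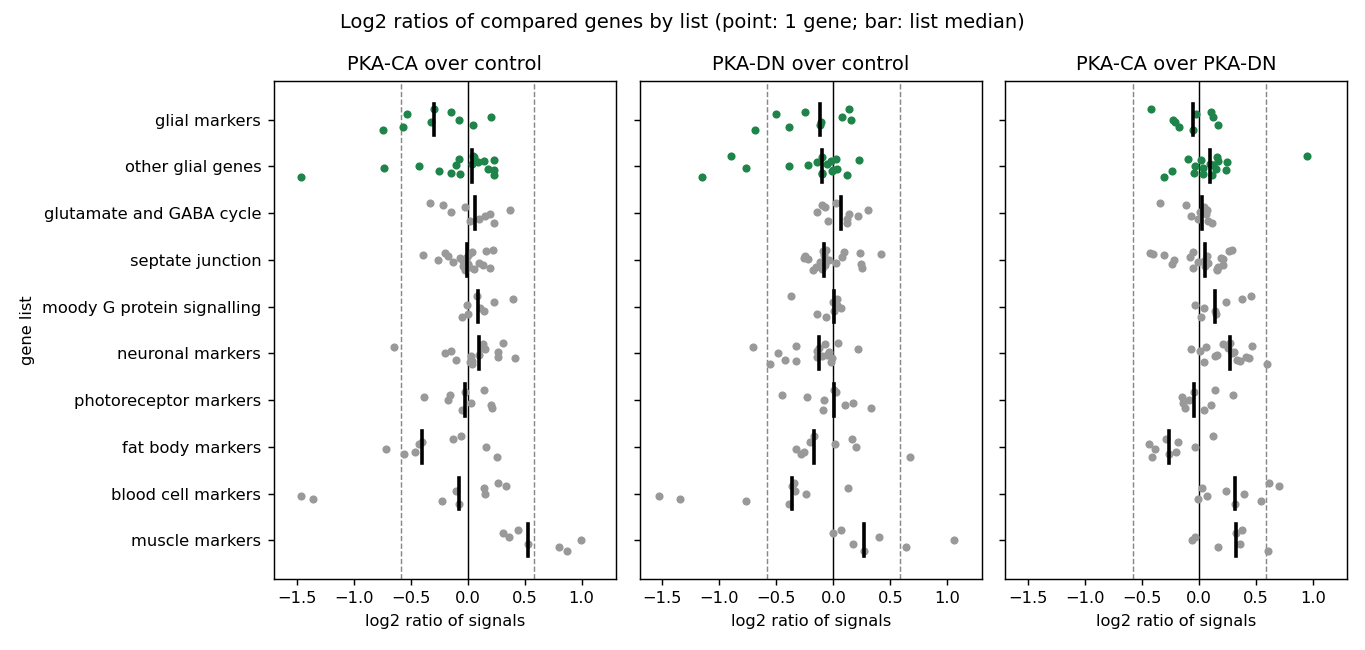
Log2 ratio of signals of each compared gene (points) and list medians (black bars) in 3 panels (PKA-CA over control; PKA-DN over control; PKA-CA over PKA-DN), with glial lists in green, other lists in grey and dashed lines at 1.5-fold. The 9 glial markers have a median of -0.29 for PKA-CA over control, beside -0.003 over all compared genes.

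Lists of genes that share pathways with the members had no gene past 1.5-fold. Per comparison and direction, 1.44% to 2.22% of all compared genes passed it, so 0 in short lists lies near that share. In the glutamate and GABA cycle, 10 of 12 listed genes were compared and 0 passed 1.5-fold in any comparison, with medians of 0.06 for PKA-CA over control, 0.07 for PKA-DN over control and 0.02 between PKA-CA and PKA-DN. Its brightest genes, glutamate dehydrogenase (Gdh) and the aminotransferase gene Got2, had 0.02 and -0.22 for PKA-CA over control. The other glutamine synthetase gene, Gs1, whose product is mitochondrial and which was picked out after its values had been seen, had 0.10 and 0.12 over the control in PKA-CA and PKA-DN heads, where Gs2 had -0.32 and -0.11.

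Septate junction genes had 21 of 25 compared and 0 past 1.5-fold in any comparison. Their medians were -0.005 for PKA-CA over control, -0.08 for PKA-DN over control and 0.05 between PKA-CA and PKA-DN, and the beta subunit genes nrv3 and nrv1, the brightest, had 0.13 and -0.04 for PKA-CA over control. Genes of G protein signalling around Moody had 8 of 14 compared, again with 0 past 1.5-fold. Here the medians were 0.09 for PKA-CA over control (6 higher, 2 lower), 0.001 for PKA-DN over control (4 higher, 4 lower) and 0.14 between PKA-CA and PKA-DN (7 higher, 1 lower; 0.04 with probe sets averaged), and the brightest genes Galphaq and Galphas had 0.15 and 0.10 for PKA-CA over control. Over all compared genes, 50.5%, 51.7% and 49.8% were lower in these comparisons, in the same order. Among the 6 genes of this list with no usable probe set were Pka-C1 and Pka-R2, so neither the main catalytic subunit nor this regulatory subunit of PKA could be set beside loco and moody. Another regulatory subunit gene, Pka-R1, was compared and is given here after its values had been seen. It had 0.40 for PKA-CA over control, 0.03 for PKA-DN over control and 0.37 between PKA-CA and PKA-DN. Some gene lists overlap, so a gene can be counted in several of them with the same values. Among such genes, Galphaq is also listed as a photoreceptor marker and nrv3 as a neuronal marker.

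Marker signals of other cell types of the head also differed between these arrays, and the part of those cell types in the glial values was not tested. Of 17 compared neuronal markers, 13 were higher and 4 lower in PKA-CA than in control heads (median 0.10), and 2 were higher and 15 lower in PKA-DN than in control heads (median -0.12). Between the PKA arrays, 16 of 17 were higher in PKA-CA (median 0.27), among them elav at 0.60, and cpx and nrv3, the brightest, had 0.16 and 0.21. Of all compared genes, 50.5%, 51.7% and 49.8% were lower in these comparisons, in the same order. The summed signal of the neuronal list was 65165 in PKA-CA heads, 56522 in PKA-DN heads and 60615 in control heads. That of the 9 glial markers was 21113 in PKA-CA heads, 23569 in PKA-DN heads and 25019 in control heads, of which Gs2 makes up the largest share. For the 17 compared genes of the other glial list the sum was 45928.6 in PKA-CA, 42989 in PKA-DN and 45514.5 in control heads. The lowest array for that list was thus PKA-DN, whereas for the 9 markers it was PKA-CA. The channel gene para was the neuronal marker past 1.5-fold over the control, at -0.65 for PKA-CA and -0.70 for PKA-DN.

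Blood cell markers had 9 of 10 compared, with 2 of 9 lower by 1.5-fold or more for PKA-CA (1.89% of all genes) and 3 of 9 for PKA-DN over control (1.44%). The prophenoloxidase genes PPO1 and PPO2 had -1.36 and -1.46 for PKA-CA and -1.35 and -1.53 for PKA-DN, and the third, NimC1, had -0.77 for PKA-DN. The collagen genes vkg and Col4a1 had 0.70 and 0.61 for PKA-CA over PKA-DN, and the scavenger receptor gene crq had 0.15 for PKA-CA and 0.12 for PKA-DN over control. The summed signal of the blood cell list was 10516 in PKA-CA heads, 8322 in PKA-DN heads and 11526 in control heads, and He was below the highest negative control on all arrays.

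Over 9 compared genes, fat body markers had medians of -0.40 in PKA-CA and -0.17 in PKA-DN heads relative to the control. Quantile normalization moved the medians to -0.08 and 0.00. The yolk protein genes Yp1, Yp2 and Yp3 had -0.56, -0.46 and -0.72 for PKA-CA over control, and the storage protein gene Lsp2 had 0.68 for PKA-DN over control. The summed signal was 153507 in PKA-CA heads, 184001 in PKA-DN heads and 191032 in control heads, and Fbp1 was below the highest negative control on all arrays.

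Muscle markers differed the other way, with 7 of 7 compared genes higher in PKA-CA and 6 of 7 in PKA-DN than in control heads, at medians of 0.53 and 0.27. Of all compared genes, 50.5% and 51.7% were lower in these comparisons. For PKA-CA over control, upheld (up) had 0.87, Prm 0.80, Mlp60A 0.99 and bt 0.31. The summed signal was 15375 in PKA-CA heads, 13918 in PKA-DN heads and 9961 in control heads. Photoreceptor markers, with 9 of 17 compared, lay near 0, at medians of -0.03 for PKA-CA (0.10 under quantile normalization) and 0.01 for PKA-DN over control (-0.08 with probe sets averaged). The arrestin genes Arr1 and Arr2, the brightest, had -0.17 and -0.38 for PKA-CA over control, and their summed list signal was 108560 in PKA-CA heads, 112328 in PKA-DN heads and 116447 in control heads. Signs of RNA quality also moved between arrays, since the ratio of 3' to 5' signal of GAPDH was 2.0 in PKA-CA heads, 2.05 in PKA-DN heads and 1.70 in control heads. For actin it was 1.70 in PKA-CA heads, 2.29 in PKA-DN heads and 1.79 in control heads, and for eIF-4a 3.01, 2.33 and 2.51 in the same order of arrays. The part of RNA quality in the glial values was not tested.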

How the data were processed

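Biotin-labelled cRNA from 6 ug of total head RNA was hybridised to 1 Affymetrix array per genotype. The deposited values are linear intensity, 1 signal per probe set, which the authors made with MAS5, as the submitters' processing notes name it; the MAS5 version is not stated in those notes. All 18952 probe sets were present on each array, and the mean without the highest and lowest 2% was 500 on each. The signals were used without further normalization, as log2 values with no added constant.

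The platform's gene table listed 14049 probe sets; 13646 had 1 symbol, 402 several and 1 none, and 4903 were not listed and are unnamed here. For 13543 probe sets the symbol was brought up to date by gene identifier from RefSeq's Release 6 plus ISO1 MT, and no coordinates are given. The brightest probe set stood for a gene. Probe sets of nrv2, Gat and Gli have the suffix _s_at, by which Affymetrix marks probes that can match several transcripts.

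Of 100 fly-array negative controls, 99 were used, after 1 with a signal above 1000 was left out. A difference was called at 1.5-fold. With 1 array per group no test was possible. The calculation of ratios and counts was checked on simulated arrays with large known changes and little noise. Such a check covers the arithmetic and not the reliability of 1.5-fold calls on these arrays. Alternatives were centring, quantile normalization and cyclic loess (limma 3.58.1, R 4.3.3), adding 64, other signal filters and averaging probe sets. Other analysis used Python 3.11.15 with pandas 2.3.3 and numpy 2.4.6. Named genes are all members and, from the other lists, those past 1.5-fold in any comparison and the 2 brightest. Outside this rule, Gs1, Pka-R1, Balat, naz, gcm, gcm2, He and Fbp1, and genes without a usable probe set, are named after their values or state had been seen. Members and lists were chosen with earlier results of these data known.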

Additional observations from a re-analysis of the deposited data

How the results depend on the processing

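The 27 member ratios (9 genes, 3 comparisons) kept their sign under all 7 alternatives in which the gene was compared, and 181 of 183 recomputed values stayed on the same side of 1.5-fold and within 0.1 of the reported log2 ratio. The 2 others were loco for PKA-CA over control, which reached -0.59 both with centred arrays and with quantile normalization. With these settings 2 of 9 markers were 1.5-fold or more lower in PKA-CA than in control heads, in place of 1, since loco lay just short of the threshold. Between PKA-CA and PKA-DN the median was -0.17 in the upper 25% by signal, where Gat and Gli drop out and 7 genes are left, against -0.06 reported. For PKA-CA over control the median ranged from -0.32 to -0.25 and for PKA-DN over control it stayed at -0.11. The ratio of alrm ranged from -0.77 to -0.70 for PKA-CA and from -0.69 to -0.65 for PKA-DN over control. No paired analysis was possible because each genotype has 1 array, and no array could be left out. Averaging probe sets changed no member, as each has 1. The other signal filters only choose which genes are kept, so they left every member ratio as it was. The values under these settings count among the 181 but do not test the ratios. Adding 64 to every signal cannot change the sign of a ratio, so that setting does not test the signs. Precision is limited by there being 1 array per genotype.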
